A study of Mus musculus with 120 samples.

Results

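The 39 Hox genes of the mouse A, B, C and D clusters were described in messenger RNA sequencing of dissected gastrulating embryos and of differentiating embryonic stem cells. Members were every gene of both deposited count tables whose symbol is Hox followed by a cluster letter from a to d and a paralog number, which gave 39 of the 23154 genes listed: 11 in cluster A, 10 in cluster B, 9 in cluster C and 9 in cluster D. Paralog numbers 1 to 3 were grouped as anterior Hox genes (8 genes), 4 to 8 as central (15 genes) and 9 to 13 as posterior (16 genes).

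The embryo series held 18 libraries from ICR mice, 2 for each of 9 groups. At 6.5 days post coitum (dpc) the groups were the epiblast (Epi) and the extra-embryonic part (ExE). At 7 dpc (E7.0) they were embryonic regions A and P and the ExE, and at 7.5 dpc (E7.5) regions A, AM and P and the ExE. The labels do not spell out A, AM and P, and no source used here states how many embryos went into a library. The cell series held 10 libraries of the E14/TG2A embryonic stem cell line, either unedited (WT) or with the enhancer Enh9E deleted by CRISPR-Cas9 (KO), before differentiation (D0) and on day 8 of neural differentiation (D8), with 2 WT and 3 KO libraries at each day. The number of edited clones and the position of Enh9E are not stated in any source used here, and the tables hold no gene that would check the deletion. Nothing in the labels says that replicates came from separate litters or cultures, so the p-values measure the spread between these libraries, which may be technical.

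Hox genes encode homeodomain transcription factors that give cells along the head-to-tail axis their positional identity. Within each cluster the genes stand in the order in which they are switched on: low paralog numbers, at the 3′ end, start first and reach furthest forward, and high numbers, at the 5′ end, come last and mark the tail. The first transcription starts in and near the posterior primitive streak under Wnt, FGF and retinoic acid signals and Cdx factors, while Polycomb complexes hold the clusters silent elsewhere, including in embryonic stem cells. Hox proteins bind DNA together with Pbx, Meis and Pknox proteins of the TALE homeodomain family.

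All 39 members were placed on GRCm38.p6 from RefSeq: cluster A on chromosome 6 (52155367 to 52260880), B on chromosome 11 (96194316 to 96368254), C on chromosome 15 (102921131 to 103036856) and D on chromosome 2 (74668225 to 74765142). Of the 39 annotated gene spans, 20 overlapped another annotated gene and 10 overlapped another Hox gene, as Hoxb3 does with Hoxb4 and Hoxa3 with Hoxa4, Hoxa5 and Hoxa6. How the deposited counting treated strand and overlaps is not stated in any source used here, so the counts of those members are uncertain. No transcript lengths were used, so the tests compared each gene between groups and not with other genes. Shares of the summed level and rankings of members by counts do set genes side by side, without correction for length.

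The RefSeq promoter table held 24 entries for 22 of the 39 members. Hoxb1, Hoxa7, Hoxa10 and Hoxd8, on which results turn, are printed as the 250 bases before an annotated start, 5′ to 3′ on the gene's own strand, because Hoxb1 had its highest mean in E7.5 P and the other 3, which are central or posterior, in the E7.5 ExE. Capitals mark a match to TGAT and GATGG with 1 base between, the form of a paired Hox and Pbx site, in Hoxb1, to TTTATG, a Cdx-type site, in Hoxa7, and to TTTATA, also Cdx-type, in Hoxa10. The Hoxd8 window had no match. The windows of Hoxb4, Hoxa9, Hoxd9 and Hoxd10, which are not printed, had none either. These central or posterior genes also had their highest mean in the E7.5 ExE. The table held 2 Hoxa10 windows: the one printed lies inside the annotated gene span, and the one before the span's first base (52240855 to 52241104) had no match to any of the motifs searched.
Hoxb1, chr11:96365508-96365757, plus strand: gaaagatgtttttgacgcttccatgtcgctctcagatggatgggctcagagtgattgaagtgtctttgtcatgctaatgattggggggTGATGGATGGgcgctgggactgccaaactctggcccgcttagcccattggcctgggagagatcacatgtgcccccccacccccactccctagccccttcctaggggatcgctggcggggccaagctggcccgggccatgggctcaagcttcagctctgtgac
Hoxa7, chr6:52218574-52218823, minus strand: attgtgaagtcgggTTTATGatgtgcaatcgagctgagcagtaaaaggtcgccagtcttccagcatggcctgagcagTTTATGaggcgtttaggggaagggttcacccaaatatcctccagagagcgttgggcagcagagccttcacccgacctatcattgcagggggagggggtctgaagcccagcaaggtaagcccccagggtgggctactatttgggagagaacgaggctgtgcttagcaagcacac
Hoxa10, chr6:52234940-52235189, minus strand: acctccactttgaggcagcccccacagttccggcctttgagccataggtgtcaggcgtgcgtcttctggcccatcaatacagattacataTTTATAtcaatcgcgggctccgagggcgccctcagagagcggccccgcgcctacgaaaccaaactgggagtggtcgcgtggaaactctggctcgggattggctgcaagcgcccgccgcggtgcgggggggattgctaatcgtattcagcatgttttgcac
Hoxd8, chr2:74704365-74704614, plus strand: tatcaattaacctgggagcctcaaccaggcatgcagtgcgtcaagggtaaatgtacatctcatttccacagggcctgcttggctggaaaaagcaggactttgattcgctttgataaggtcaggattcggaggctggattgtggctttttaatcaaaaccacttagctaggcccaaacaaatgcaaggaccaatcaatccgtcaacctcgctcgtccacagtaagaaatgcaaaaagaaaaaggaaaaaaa

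Both strands of each window were searched. TTTATG was present in 5 of the 24 Hox windows (20.8%) and in 10.8% of all 32851 promoter windows of the same length, and TTTATA in 4 (16.7%) against 12.4%. The Hox and Pbx motif was present in the Hoxb1 window only, 1 of 24 (4.17%), and in 66 of all windows (0.201%). Direct repeats of AGGTCA and of AGTTCA with 5 bases between, the classical form of a retinoic acid receptor site, were in none of the 24 and in 0.00913% and 0.0213% of all windows. The Hox windows held a median of 12.5 CG dinucleotides (2 to 35), against 6 (0 to 56) over all windows.

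Libraries held 5145033 to 17138732 counts in embryos and 5962176 to 13182032 in cells. Levels are counts-per-million (CPM), a gene's counts relative to its library's total, with the total scaled by edgeR's trimmed mean of M-values (TMM), so 1 count was worth at most 0.18 CPM in any library. Hox genes took 16 to 4616 counts of an embryo library and 31 to 825 of a cell library, and most members stood near the counting limit, since 3 counts equal 0.152 to 0.54 CPM in embryos and 0.231 to 0.456 in cells. Replicates of a group differed by more than sampling noise, with a chi-square of 40.4 to 135 per degree of freedom in embryos and 3.78 to 63.9 in cells. The marker lists matched the labels in outline: 6 trophoblast genes summed to 310.9 and 443.2 CPM in the E7.5 ExE against 26.91 to 79.44 in the embryonic regions, and 5 naive pluripotency genes summed to 2610 to 3368 CPM at D0 against 35.68 to 159.7 at D8. Neural progenitor genes (5 genes) summed to 1062 and 1263 CPM in WT D8 and 662.4 to 839.4 CPM in KO D8, where KO overlapped the 577.5 to 740.4 CPM of D0. The 2 WT D8 libraries differed in forebrain genes (4 genes, 29.61 and 635.7 CPM) and hindbrain genes (4 genes, 99.45 and 17.56 CPM).

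**Figure D1:**
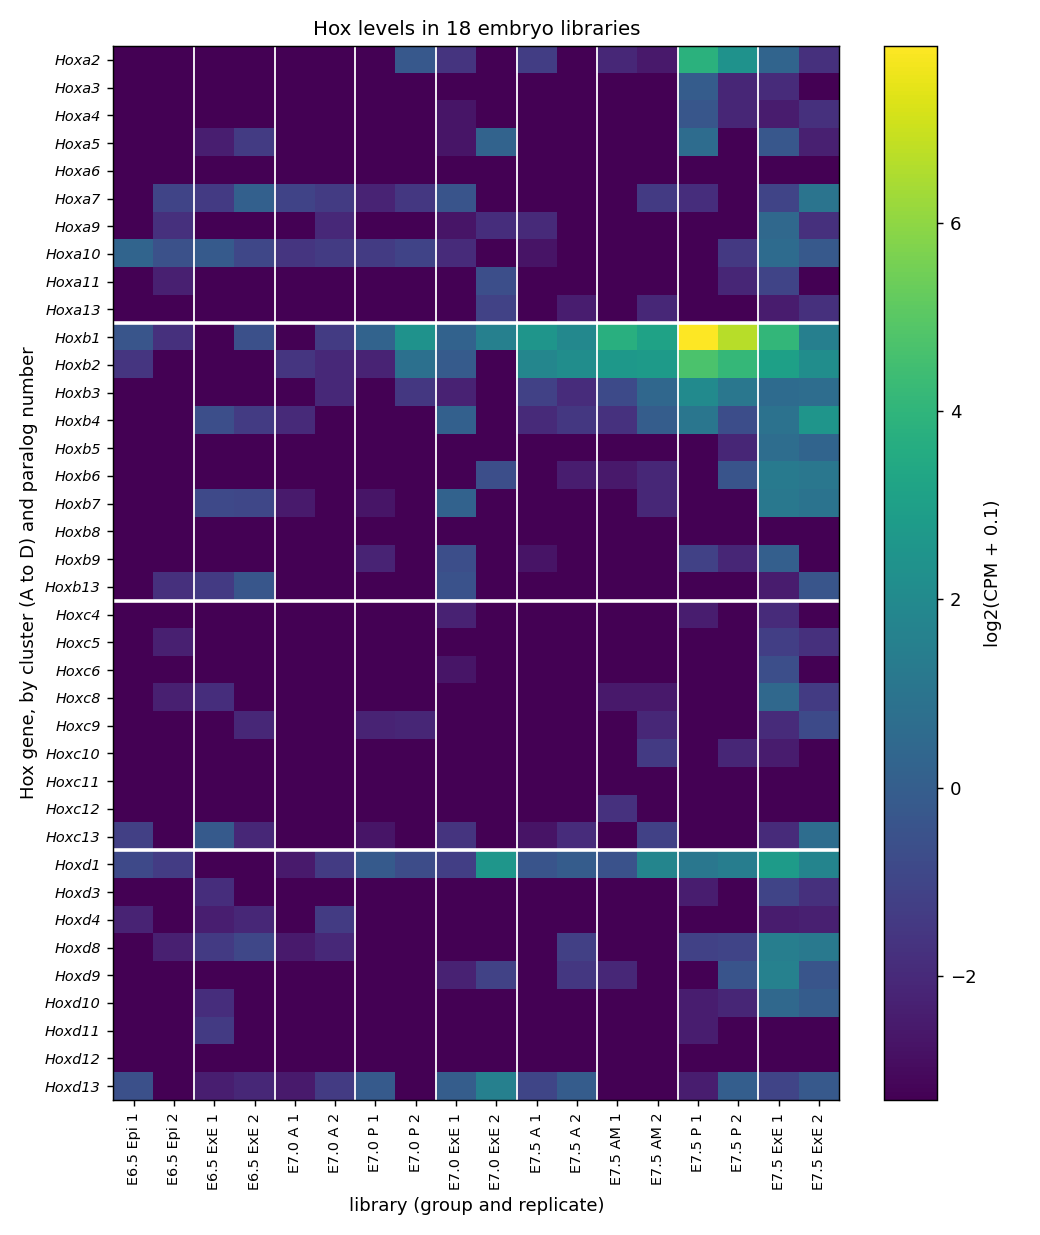
Rows are 38 of the Hox genes, ordered by cluster and paralog number, and each column is an embryo library; color gives log2(CPM + 0.1), and white lines part the clusters and groups. The brightest cells are Hoxb1 in the E7.5 P libraries, and most central and posterior rows are brightest in an ExE column.

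Hox RNA was most abundant in region P at E7.5. The summed level of the 39 genes was 398.3 and 151.4 CPM in the E7.5 P libraries, 70.96 and 36.34 CPM in the E7.5 ExE, 23.24 and 28.01 CPM in AM and 14.02 and 12.63 CPM in A. At E7.0 it was 3.562 and 9.767 CPM in P, 9.121 and 31.13 CPM in the ExE and 1.292 and 2.266 CPM in A, and at 6.5 dpc 3.536 and 2.674 CPM in the epiblast and 12.59 and 6.057 CPM in the ExE. Both E7.5 P libraries were therefore above all other embryo libraries.

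The 2 sites with most Hox RNA differed in which genes supplied it. Anterior genes made up 98.7% and 97.2% of the summed level in the E7.5 P libraries, and central and posterior genes together the small remainder. In the E7.5 ExE the anterior share was 67.3% and 40.2%, the central share 19.7% and 43%, and the posterior share 13% and 16.8%. Cluster B gave 67.4% and 80.5% of the P total, cluster A 31.9% and 16.3%, cluster D 0.693% and 3.12% and cluster C 0.0217% and 0.0866%. These shares of CPM are not corrected for transcript length and were not tested.

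**Figure D2:**
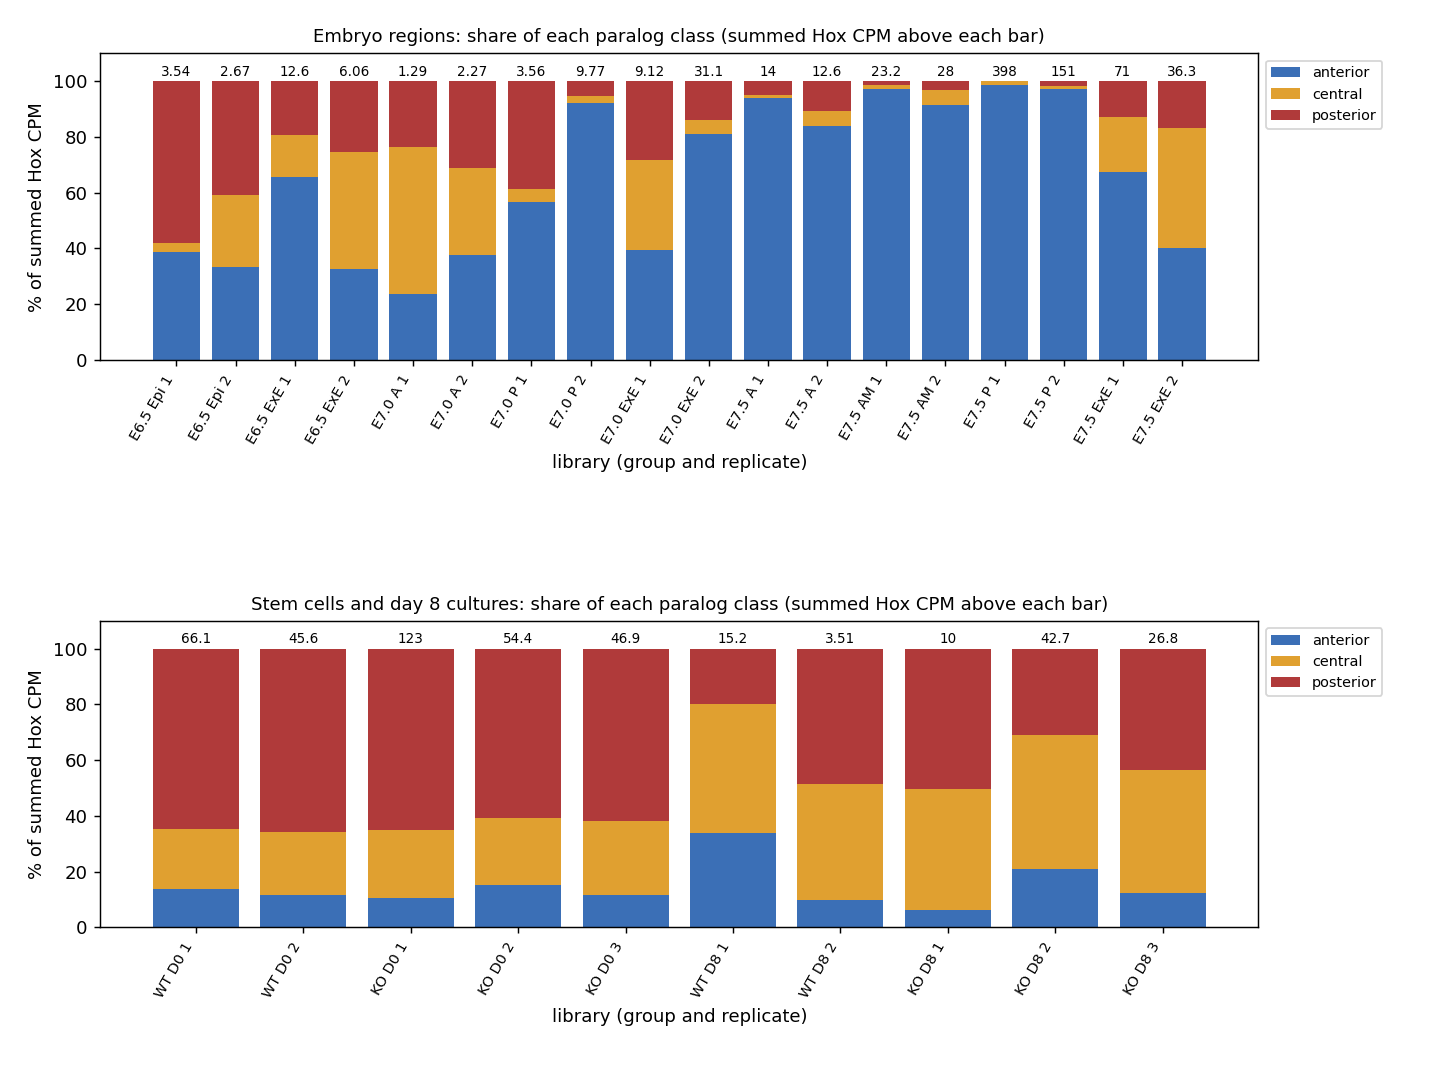
Bars show the percentage of the summed Hox CPM held by anterior (1 to 3), central (4 to 8) and posterior (9 to 13) Hox genes in each library, with the summed CPM above each bar. The E7.5 P bars are almost wholly anterior, while the D0 stem cell bars are 60.7% to 65.7% posterior.

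A gene-by-gene comparison, which length does not affect, gave the same division. Of the 39 members, 27 had at least 10 counts over the embryo libraries. Of the 8 anterior genes, 6 had their highest mean in E7.5 P, and 5 of these, Hoxa2, Hoxb1, Hoxb2 and Hoxb3 among them, were higher in both P libraries than in any of the other 16. Hoxd1 and Hoxd3 had their highest mean in the E7.5 ExE. Of the 9 central genes with enough counts, 7 peaked in the E7.5 ExE and 2, Hoxa4 and Hoxa5, in E7.5 P, and of the 10 posterior genes 7 peaked in the E7.5 ExE, 2 in the E7.0 ExE and 1 in the 6.5 dpc ExE. A gene with few counts can take its highest mean from 1 library, so the peaks of such genes are a description. How many of all genes peak in each group, or stand above all other libraries there, was not counted. These counts of members therefore have no background beside them and were not tested.

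Hoxb1, which in later embryos specifies the fourth rhombomere of the hindbrain, had the most counts of any member in embryos. Its level was 236 and 101 CPM in E7.5 P, a mean of 168 ± 96 (SD, n = 2). It stood at 13.3 and 8.67 CPM in AM, 5.62 and 3.67 CPM in A and 16.8 and 2.77 CPM in the ExE. At E7.0 the values were 1.09 and 5.07 CPM in P, 1.04 and 2.88 CPM in the ExE and 0 and 0.283 CPM in A, and no 6.5 dpc library passed 0.684 CPM. The ExE range at E7.5 spanned those of A and AM, and P did not overlap any of them. With a cut of 1 CPM in every library of a group, Hoxb1 was the only member detected in E7.0 P, and no member passed in the epiblast or in E7.0 A.

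Hoxb2, a hindbrain gene and a known target of Krox20, stood at 25.9 and 17.8 CPM in E7.5 P, 8.1 and 4.39 CPM in the ExE, 6.1 and 6.81 CPM in AM and 3.44 and 4.35 CPM in A. Hoxa2, which patterns the second branchial arch, stood at 14.2 and 5.11 CPM in P, and at most 1.11 CPM in any other embryo library. Hoxb3 stood at 3.97 and 2.1 CPM in P, 1.43 and 1.53 CPM in the ExE, 0.48 and 1.24 CPM in AM and 0.354 and 0.171 CPM in A. All 3 genes were higher in both P libraries than elsewhere. Hoxd1 ran the other way, with 6.99 and 3.24 CPM in the E7.5 ExE and 2.07 and 2.62 CPM in P, though AM replicate 2, at 3.3 CPM, reached the lower ExE value.

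**Figure D3:**
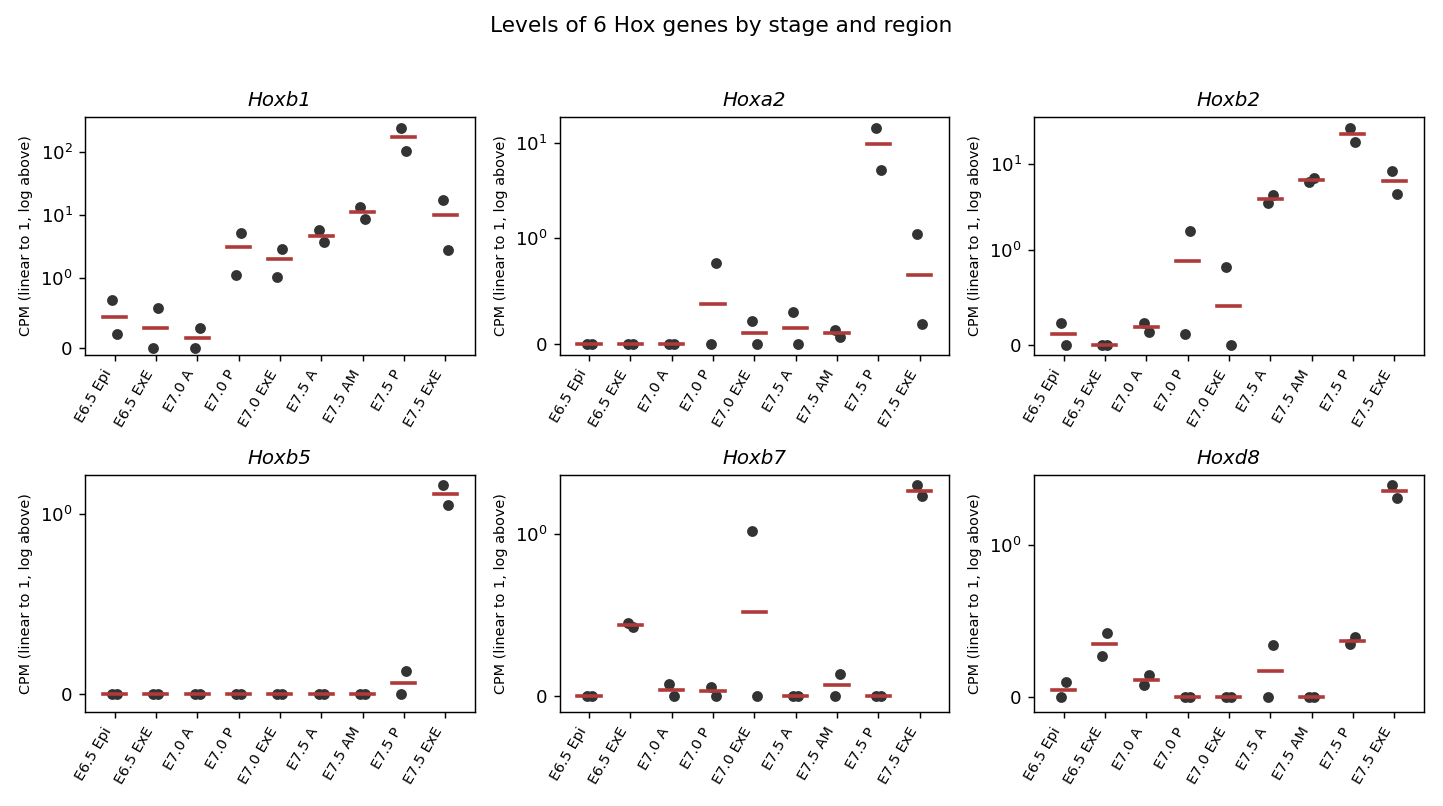
Points are single libraries and red lines group means, in CPM on an axis that is linear up to 1 and logarithmic above, for 3 anterior genes (upper row) and 3 central genes (lower row). Hoxb1 peaks at 236 and 101 CPM in E7.5 P, while Hoxb5, Hoxb7 and Hoxd8 exceed 1 CPM in both libraries of the E7.5 ExE and of no other group.

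The difference between P and the other embryonic regions did not pass the test over all genes, fitted without a block for replicate number. The test was edgeR's quasi-likelihood test on the counts with Benjamini-Hochberg adjustment over all 14403 genes tested and a threshold of 0.05 on the adjusted p. A filter on low counts left 16 of the 39 members: a member seen in a single group passed through that group, so counts and medians over the 16 describe the tested members and not the clusters. In E7.5 P against A no member was called, where 0.236% of all genes were called. Hoxb1 had a log2 fold change of 5.17 ± 1.01 (SE) with an adjusted p of 0.0626 by edgeR, and Hoxa2 5.74 ± 1.57 with 0.2. At an unadjusted p under 0.05 there were 6 members, and DESeq2 called 1, Hoxb1, with an adjusted p of 0.00287. Over all genes DESeq2 called 196 higher and 37 lower, where edgeR called 29 and 5. Shares of all genes at an unadjusted p were not counted, so the member counts at that threshold carry no background. The median log2 difference of the 16 was 2.62, against 0.0247 over all genes tested.

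P at E7.5 against P at E7.0 gave no called member either, where 0.0764% of all genes were called. The edgeR log2 fold change was 5.85 ± 1.06 for Hoxb1, with an adjusted p of 0.0615, and 4.79 ± 1.02 for Hoxb2, with 0.0901. Here 8 members had an unadjusted p under 0.05 and DESeq2 called 3. Over all genes DESeq2 called 73 higher and 42 lower, where edgeR called 4 and 7. The median log2 difference of the 16 tested members was 4.81 as fitted, against 0.0526 over all genes. It was 2.21 with the 4 members absent from 1 stage set at their bound.

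AM against P also gave 0 called members by edgeR (0.111% of all genes called), 6 at an unadjusted p under 0.05 and 0 by DESeq2. Hoxb1 had a log2 fold change of -3.94 ± 0.95 with an adjusted p of 0.215 in that comparison. AM against A gave 0 (1.57% of all genes called), with 1 at an unadjusted p under 0.05 and 0 by DESeq2. In that comparison Hoxd13 had no count in AM and 0.405 and 0.854 CPM in A, which is at least 6.11-fold lower in AM for 3 counts over the group, with an adjusted p of 0.287. P against A at E7.0 gave 0 (0.00694% of all genes called), with 1 member at an unadjusted p under 0.05 and 0 by DESeq2. That member was Hoxb1, with 59 counts in P and 2 in A, a ratio of 23.6 (95% exact interval 6.25 to 199, counting error only) and an adjusted p of 1. These comparisons share libraries with each other, and no test of 1 against another was made.

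Tissue markers moved with the P levels. Presomitic mesoderm genes (6 genes) summed to 254.4 and 208.2 CPM in E7.5 P and to 19.13 to 95.61 CPM in A, AM and ExE, and primitive streak genes (6 genes) to 465.6 and 633 CPM against 15.89 to 159.4 CPM. At E7.0, when Hox levels were low, the P libraries held 846.9 and 1032 CPM of the streak genes and 29.94 and 69.51 CPM of the presomitic genes. The 2 P libraries differed from each other in visceral endoderm genes (6 genes, 511.9 and 6156 CPM) and in Aldh1a2, the enzyme that makes retinoic acid (182 and 8 CPM), with the higher Hox levels in the library with more Aldh1a2. The part of these differences in the Hox levels was not tested. In bulk tissue, more cells of a type and more RNA per cell cannot be told apart.

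In the E7.5 ExE 6 of the 7 tested central Hox genes were called higher than in the embryonic regions, with 1 of 3 posterior and 0 of 6 anterior genes. Against the mean of A, AM and P at the same stage, edgeR called 7 of the 16 tested members, all higher, where 13.4% of all genes were called higher and 21.3% either way. They were Hoxb4, Hoxb5, Hoxb6, Hoxb7, Hoxa7 and Hoxd8, which act in the neck and trunk, and the posterior gene Hoxa10. The 16 had a median log2 difference of 3.02, against -0.0214 over all genes. Hoxb5, Hoxb6, Hoxb7 and Hoxd8 were higher in both E7.5 ExE libraries than in any other embryo library, and passed the filter through that group. The direction of the calls and the median therefore follow in part from the filter, and describe the tested members only.

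Hoxb7 was at 2.15 and 1.81 CPM in the E7.5 ExE, at 0 and 0.138 CPM in AM and at 0 in both libraries of A and of P. That is 46 counts against 2, a ratio of 79.6 (95% exact interval 20.8 to 677, counting error only), with an adjusted p of 0.00297 in the edgeR fit. Hoxb5 was at 1.51 and 1.14 CPM in the ExE and had a single count in the other 16 embryo libraries, in E7.5 P, a ratio of 107 (17.9 to 4370) with an adjusted p of 0.0112. Hoxb6, whose annotated antisense neighbor Hoxb5os overlaps both it and Hoxb5, was at 2.3 and 2.1 CPM in the ExE and at most 0.655 CPM in A, AM and P, a log2 fold change of 4.24 ± 1.24 with an adjusted p of 0.0275. For these 3 genes both ExE libraries were above all libraries of the other regions.

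Hoxd8 was at 2.7 and 2.19 CPM in the ExE, 0.345 and 0.393 CPM in P, 0 and 0.341 CPM in A and 0 in AM, with an edgeR adjusted p of 0.00618. Hoxa10 was at 1.43 and 0.763 CPM in the ExE against 3 counts in the 6 embryonic libraries, a ratio of 30 (95% exact interval 9.19 to 155) with an adjusted p of 0.00493. At 6.5 dpc Hoxa10 was at 1.14 and 0.594 CPM in the epiblast, which overlaps these ExE values. Hoxa7 was at 0.397 and 1.91 CPM in the ExE against at most 0.275 CPM in A, AM and P, with an adjusted p of 0.0241. Hoxb4 was at 1.75 and 5.63 CPM in the ExE, 1.98 and 0.524 CPM in P, 0.206 and 0.895 CPM in AM and 0.152 and 0.256 CPM in A, a log2 fold change of 2.79 ± 0.91 with an adjusted p of 0.04. Hoxb4 was the only called member whose ExE libraries overlapped the embryonic ones.

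The calls in the E7.5 ExE rest on few libraries. Leaving out 1 library at a time gave 2 to 8 called members, with 2 remaining called without ExE replicate 1 and 2 without ExE replicate 2, and 8 without P replicate 2. Hoxb7 was called in all 8 such fits, while Hoxb4 was called in none, Hoxb6 only without P replicate 2, and Hoxa7 in 3. Hoxa10 was not called without ExE replicate 1, Hoxb5 without ExE replicate 2, and Hoxd8 without either. Hoxb5 had no value without ExE replicate 1, when it fell below the filter. DESeq2 called 4 members, and Hoxb4, Hoxb5 and Hoxb6 were not among them (adjusted p 0.0596, 0.33 and 0.456). Over all genes it called 1948 higher and 1774 lower. Hoxb4 was also not called with scaling by total counts (adjusted p 0.097).

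Posterior genes in the E7.5 ExE mostly fell below the filter and carry no test. Hoxd9 was at 2.94 and 0.668 CPM, Hoxd10 at 1.27 and 0.858 CPM and Hoxa9 at 1.27 and 0.191 CPM. Hoxd9 and Hoxd10 were above 0.655 CPM in no embryonic library, and Hoxa9 above 0.198 CPM in none outside the E7.5 ExE. The tested posterior gene Hoxc13 was at 0.159 and 1.53 CPM with an edgeR adjusted p of 0.0736. Hoxb8 and Hoxc11 had no count in any embryo library.

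Compared with P alone, the E7.5 ExE had 1 called member, where 8.55% of all genes were called either way and 3.7% lower. Hoxb1 fell by 4.09 ± 0.96 on the log2 scale, with an edgeR adjusted p of 0.0212, and was no longer called without ExE replicate 2 or P replicate 1, or when only these 2 groups were fitted (adjusted p 0.0539). Hoxb7, with 46 counts in the ExE and none in P, was at least 12.7-fold higher in the ExE for 3 counts over the P group, with an adjusted p of 0.0549. The median log2 difference of the tested members was 1.32, against -0.0447 over all genes. This comparison shares its P and ExE libraries with the one against the 3-region mean.

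Markers of other tissues were present in the E7.5 ExE libraries. The list of extra-embryonic mesoderm and allantois genes (8 genes) summed to 203.9 and 202.2 CPM there and to 26.51 to 115.9 CPM in A, AM and P. Within it Tbx4, an allantois gene, was at 1.51 and 0.477 CPM in the ExE, at 0 in A and AM and at 0.0863 and 0.131 CPM in P, while Twist1 was no higher in the ExE (3.42 and 1.43 CPM) than in AM (4.32 and 2.89 CPM). Visceral endoderm genes summed to 13230 and 16310 CPM and blood and vessel genes (6 genes) to 184 and 138.1 CPM in the ExE. The part of these tissues in the Hox levels was not tested.

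At E7.0 the summed Hox level of the ExE was 9.121 and 31.13 CPM. Against the mean of A and P, edgeR called 2 of the 16 members, both higher, where 10% of all genes were called higher and 18.1% either way. Hoxd1 was at 0.328 and 5.76 CPM in the ExE, 0.804 and 0.507 CPM in P and 0.076 and 0.283 CPM in A, with a log2 fold change of 3.09 ± 0.98 and an edgeR adjusted p of 0.0385. Its ExE replicate 1 lay within the embryonic range.

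Both E7.0 calls were lost without ExE replicate 2. Without that library Hoxd1 had a log2 fold change of -0.03, with an edgeR adjusted p of 1. Hoxb4 and Hoxb7 did the opposite: their 18 and 19 ExE counts were all in replicate 1, and neither was called (adjusted p 0.0591 and 0.0955). The number of members called ranged from 0 to 3 as single libraries were left out, with 0 without A replicate 1, A replicate 2 or P replicate 1. Over the 16 the median log2 difference was 2.16 as fitted and 1.86 with Hoxa5, absent from A and P, at its bound, against -0.037 over all genes.

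At 6.5 dpc no member was called between ExE and epiblast by edgeR or DESeq2, where edgeR called 8.93% of all genes, and 4 members had an unadjusted p under 0.05. Hoxb4 had 8 counts in the ExE and none in the epiblast, at least 2.58-fold higher for 3 counts over the epiblast, with an adjusted p of 0.182. Hoxd1 had 7 counts in the epiblast and none in the ExE, at least 2.29-fold lower there, with an adjusted p of 0.184. Over the tested members the median was 0 on the log2 scale, against 0.0347 over all genes.

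From E7.0 to E7.5 the ExE gained no called member by edgeR, where 0.0208% of all genes were called. At an unadjusted p under 0.05 there were 6 members, and DESeq2 called 1, where it called 106 genes higher and 75 lower over all genes. Hoxd8 had no count in the E7.0 ExE and 57 at E7.5, at least 19.5-fold higher for 3 counts over the E7.0 group, with an adjusted p of 0.2. Hoxb2 went from 0.819 and 0 CPM to 8.1 and 4.39 CPM, a log2 fold change of 3.56 ± 0.99 with an adjusted p of 0.212. The median log2 difference was 2.47, against 0.102 over all genes.

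Undifferentiated stem cells carried a different set of Hox genes, at low levels. The summed level at D0 was 66.09 and 45.56 CPM in WT and 122.7, 54.36 and 46.89 CPM in KO, and posterior genes made up 60.7% to 65.7% of it in all 5 libraries. With 1 CPM in every library as the cut, 10 members were detected in WT D0 and 11 in KO D0, and 9 of these were the same, among them Hoxa7, Hoxa10, Hoxb9, Hoxb13, Hoxc4, Hoxc12, Hoxc13 and Hoxd13. Hoxb1, the member with most counts in embryos, was at 0 in 4 of the 5 D0 libraries and at 0.145 CPM in the other. KO D0 replicate 1 stood apart: its cluster A sum was 59.18 CPM, against 15.26 and 11.61 CPM in the other KO libraries, with Hoxa10 at 17.2 CPM against 1.7 and 1.77 CPM.

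**Figure D4:**
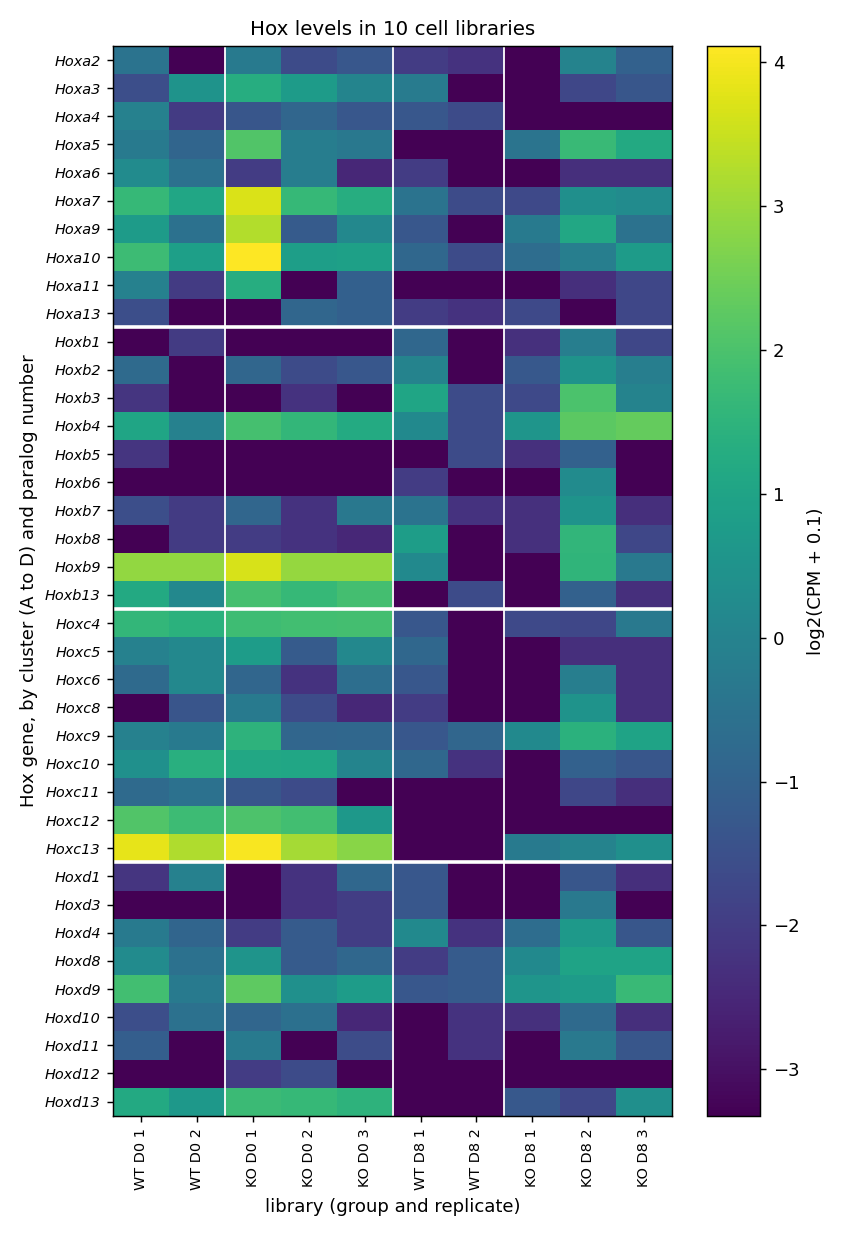
Rows are 38 of the Hox genes, ordered by cluster and paralog number, and each column is a cell library; color gives log2(CPM + 0.1). Hoxc13, Hoxb9 and Hoxc12 are higher in every D0 column than in any D8 column.

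Most of these genes fell with differentiation. At D8 the summed Hox level was 15.18 and 3.513 CPM in WT and 9.998, 42.74 and 26.84 CPM in KO, all below the D0 libraries, and the posterior share was 20% to 50.5%. In WT cells edgeR called 9 of the 20 tested members, all lower at D8, where 27.3% of all 14629 genes tested were called lower and 56.7% either way. In KO cells 11 were called lower and 1 higher, where 31% of all genes were called lower, 33.4% higher and 64.4% either way. Leaving out single libraries gave 6 to 8 called members in WT and 10 to 13 in KO, with 9 lower and 3 higher in KO without KO D0 replicate 1. The median log2 difference of the tested members was -2.81 in WT (-2.71 with 4 members at their bound) and -2.54 in KO, against 0.0184 and 0.0537 over all genes. No member reached 1 CPM in both WT D8 libraries, so the 20 passed the filter on low counts through other groups. The direction of the WT calls and the medians therefore follow in part from the filter, and describe the tested members only. The 8 members called lower in both genotypes included Hoxb9, Hoxb13, Hoxc4, Hoxc10, Hoxc12, Hoxc13 and Hoxd13. Called in either direction were 9 of 20 tested members in WT and 12 of 20 in KO, shares that are close to the backgrounds of 56.7% and 64.4%.

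Hoxc13, which is known for its role in hair and nail, was at 14.2 and 9.26 CPM in WT D0 and had no count in either WT D8 library, which is at least 60.2-fold lower for 3 counts over the group, with an edgeR adjusted p of 2.46e-05. In KO cells it was at 16.2, 8.59 and 6.84 CPM at D0 and at 0.737, 0.899 and 1.2 CPM at D8, and fell by 3.44 ± 0.44 on the log2 scale with an adjusted p of 6.48e-05. Hoxc12, its neighbor, was at 4.16 and 3.33 CPM in WT D0 and at 4.02, 3.5 and 1.46 CPM in KO D0, and had no count in any of the 5 D8 libraries. That is at least 19.2-fold lower in WT and at least 29.5-fold lower in KO, with adjusted p-values of 0.000871 and 0.000228. D0 and D8 did not overlap for either gene.

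Hoxb9, a thoracic gene, was at 7.34 and 7.38 CPM in WT D0 and 1.06 and 0 CPM in WT D8, and fell by 3.92 ± 1.19 on the log2 scale with an edgeR adjusted p of 0.0148. In KO cells it was at 12.6, 7.57 and 7.61 CPM at D0 and 0, 2.8 and 0.698 CPM at D8, and fell by 2.96 ± 0.82 with an adjusted p of 0.00813.

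The single member called higher at D8 was Hoxb3 in KO cells, with 50 counts at D8 and 1 at D0, a ratio of 48.4 (95% exact interval 8.29 to 1950) and an edgeR adjusted p of 0.0101. Its D8 values were 0.21, 3.89 and 0.898 CPM, and without KO D8 replicate 2 no member was called higher. In WT it was at 0.122 and 0 CPM at D0 and 1.97 and 0.227 CPM at D8. Hoxb8, a central gene of cluster B, was at 0.105, 2.9 and 0.2 CPM in KO D8 and 1.67 and 0 CPM in WT D8, with an adjusted p of 0.0812 in KO. Both cluster B genes were highest in the same library of each genotype, KO D8 replicate 2 and WT D8 replicate 1. WT D8 replicate 1 was the library with 99.45 CPM of hindbrain genes and 29.61 CPM of forebrain genes, but KO D8 replicate 2 had the fewest hindbrain CPM (16.38) and most forebrain CPM (332.2) of the KO libraries.

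The deletion was compared at each day. At D0 no member was called between KO and WT by edgeR or DESeq2, none had an unadjusted p under 0.05, and 0.246% of all genes were called. Hoxb13 was at 3.72, 3.05 and 3.61 CPM in KO and 2.2 and 1.01 CPM in WT, a log2 fold change of 1.08 ± 0.66 with an adjusted p of 0.493. Hoxa7 was at 12.9, 3.05 and 2.38 CPM in KO and 3.06 and 2.02 CPM in WT, with a log2 fold change of 1.22 ± 0.77 and an adjusted p of 0.516. The median over tested members was 0.407, against 0.0123 over all genes.

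At D8 edgeR called 5 of the 20 members, all higher in KO, where 10.1% of all genes were called higher and 20.5% either way. These were Hoxc13, Hoxd13, Hoxa5, Hoxb4 and Hoxd8, from all 4 clusters. The median over the tested members was 1.46, against -0.0553 over all genes. No member reached 1 CPM in both WT D8 libraries, whereas 4 did in every KO D8 library. The tested members thus passed the filter through D0 or KO D8, so the direction of the calls and the median follow in part from the filter.

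Hoxc13 had 28 counts in KO (0.737, 0.899 and 1.2 CPM) and none in WT, at least 4.85-fold higher for 3 counts over the WT group, with an edgeR adjusted p of 0.014. Hoxa5, which acts in lung and neck skeleton, was at 0.631, 3.2 and 2.19 CPM in KO and had no count in WT, at least 10.3-fold higher, with an adjusted p of 0.0283. Hoxd13, a limb and genital gene, was at 0.316, 0.2 and 1.2 CPM against no count, at least 2.93-fold higher, with an adjusted p of 0.0436. For all 3 the WT libraries were lower than every KO library.

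Hoxb4 was at 1.37, 4.59 and 4.99 CPM in KO D8 and at 1.06 and 0.227 CPM in WT D8, a log2 fold change of 2.56 ± 0.76 with an edgeR adjusted p of 0.0365. Hoxd8 was at 1.05, 1.9 and 1.9 CPM against 0.152 and 0.34 CPM, a log2 fold change of 2.59 ± 0.80 with an adjusted p of 0.0425. Hoxd9, with a log2 fold change of 2.62 ± 0.96, and Hoxc9, with 2.22 ± 0.90, did not pass (adjusted p 0.0735 and 0.0981). At D0 the same 2 called genes were at 3.72, 2.94 and 2.23 CPM (Hoxb4) and 1.34, 0.339 and 0.461 CPM (Hoxd8) in KO, and at 1.96 and 0.868 CPM and 1.1 and 0.579 CPM in WT.

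**Figure D5:**
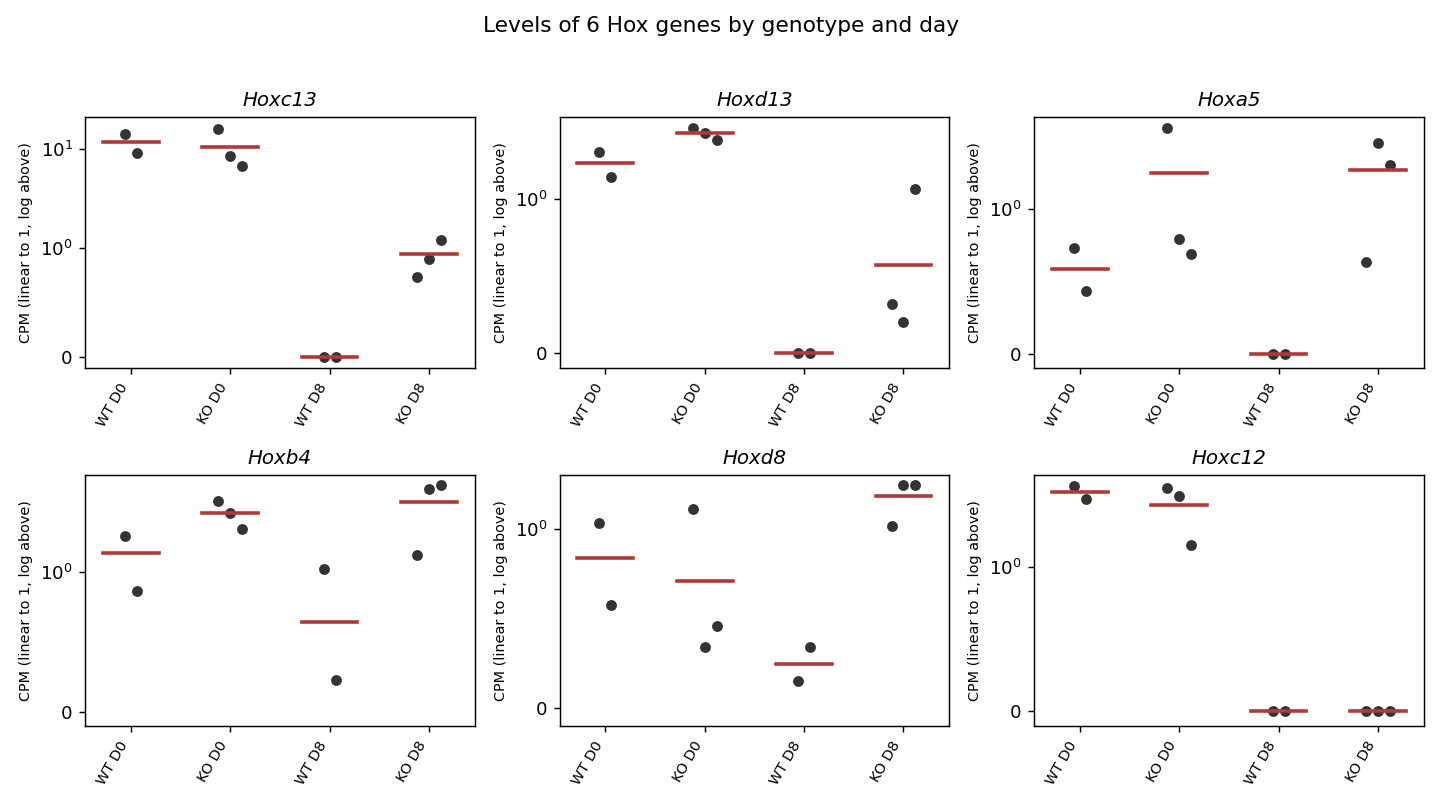
Points are single libraries and red lines group means, in CPM on an axis that is linear up to 1 and logarithmic above. Hoxc13, Hoxd13 and Hoxa5 have no count in WT D8 and are present in all KO D8 libraries, while Hoxc12 has none in either genotype at D8.

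The D8 calls depended on single libraries. Without either WT D8 library edgeR called 0 members, without KO D8 replicate 3 it called 1, without KO D8 replicate 2 it called 2, and without KO D8 replicate 1 it called 7. Fitting only the D8 groups also gave 0. The edgeR test of whether the KO minus WT difference changed between D0 and D8 called 1 of 20 tested members, Hoxc13, with an adjusted p of 0.0396. Of all genes 5.26% were called, a share near that of the members, and 2.16% with a positive difference. The fitted difference of Hoxc13, 6.26 ± 1.48 on the log2 scale, depends on the prior count, because WT D8 had no count. For Hoxd8 and Hoxd13 the difference was 2.94 ± 1.09 and 4.68 ± 1.86, with adjusted p-values of 0.12 and 0.15.

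Other features moved with genotype at D8. The list of presomitic mesoderm genes summed to 221.7 and 301.3 CPM in WT D8 and 116.8 to 170.6 CPM in KO D8. Of that list Dll1, Dll3, Rspo3 and Tbx6 passed the filter in cells, and Msgn1 and Hes7 did not. The sum alone therefore does not show that tissue in these cultures. Neuron genes (4 genes) summed to 1203 and 855.7 CPM in WT D8 and to 143.3, 335.6 and 343.5 CPM in KO D8, naive pluripotency genes to 35.68 and 64.03 against 126.4 to 159.7 CPM, and definitive endoderm genes (5 genes) to 105.5 and 61.87 against 184.3 to 456.8 CPM. The chromosomes that carry the clusters also differed in their median log2 fold change between KO and WT at D8: 0.371 for chromosome 6 (cluster A), 0.153 for chromosome 11 (B), -0.12 for chromosome 15 (C) and -0.13 for chromosome 2 (D), against -0.0553 over all genes. At D0 the chromosome 6 and 11 medians were 0.292 and 0.185. The part of these differences in the Hox results was not tested, and genotype and clone cannot be told apart.

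Genes that act with or on the clusters were read from lists given in the methods. Among the 9 TALE cofactors, all tested, 4 were lower in the E7.5 ExE than in the mean of A, AM and P and none higher, where 21.3% of all genes were called either way. Meis1 was at 8.34 and 3.82 CPM in the ExE and 13.1 to 25.1 CPM in A, AM and P, a log2 fold change of -1.69 ± 0.52 with an edgeR adjusted p of 0.0291. The log2 fold change was -0.92 ± 0.30 for Pbx3 (0.0376) and -2.49 ± 0.70 for Pknox2 (0.0182). At 6.5 dpc 1 cofactor, Meis1, was called higher in the ExE and 1 lower, and at E7.0 1, Pbx2, was called higher and 1 lower, where 8.93% and 18.1% of all genes were called.

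During neural differentiation 7 of the 9 cofactors rose in WT and none fell, and in KO 6 rose and 1, Pknox1, fell. That is 77.8% of the list called in each genotype, where 56.7% of all genes were called in WT and 64.4% in KO. Pbx3 went from 7.47 and 7.38 CPM to 48 and 40.1 CPM in WT, a log2 rise of 2.57 ± 0.20 with an edgeR adjusted p of 1.7e-06. In KO it went from 11.2, 11.6 and 12.1 CPM to 37.3, 32.1 and 34.5 CPM, a log2 rise of 1.57 ± 0.15 with an adjusted p of 5.67e-06. At D8 2 cofactors were lower in KO than in WT, where 20.5% of all genes were called, Pbx2 with a log2 fold change of -0.62 ± 0.14 (edgeR adjusted p 0.0132).

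Of 17 upstream signals and factors, 13 were tested in embryos and 14 in cells. In the E7.5 ExE against the 3-region mean only Cdx4, a caudal factor that activates central and posterior Hox genes, was called. That is 1 of the 13 (7.69%), where 21.3% of all genes were called. Cdx4 was at 12.6 and 3.62 CPM in the ExE, 8.46 and 3.54 CPM in P, 0 and 0.0688 CPM in AM and 0 in A, with an edgeR adjusted p of 0.000966. Against P alone Cdx4 overlapped, and Aldh1a2, Wnt3a and T (brachyury) were called lower in the ExE, Aldh1a2 and Wnt3a with edgeR adjusted p-values of 0.0408 and 0.0324. These were 3 of the 13 (23.1%), where 8.55% of all genes were called. Wnt3a, a streak ligand, was at 17.5 and 12.1 CPM in P and 0.636 and 0.477 CPM in the ExE. Cyp26a1, which breaks down retinoic acid, was at 9.41 and 73.1 CPM in E7.5 P and 435 and 788 CPM in E7.0 P, with an edgeR adjusted p of 0.127.

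In cells 6 of the 14 upstream genes rose and 3 fell from D0 to D8 in WT, and 5 rose and 4 fell in KO. The 64.3% called in each genotype is near the 56.7% and 64.4% of all genes. Cdx1 was at 46.8 and 18.9 CPM in WT D0 and 86, 54.7 and 54 CPM in KO D0, and at no more than 0.2 CPM in any D8 library. In KO it had 1765 counts at D0 and 2 at D8, a ratio of 912 (95% exact interval 252 to 7540), with an edgeR adjusted p of 3.91e-07. Gdf11, a signal that times posterior Hox onset, rose by 4.08 ± 0.43 in WT and 2.35 ± 0.33 in KO on the log2 scale and had a log2 fold change of -1.41 ± 0.31 in KO against WT at D8 (edgeR adjusted p 1.33e-05, 9.03e-05 and 0.011). Among 15 Polycomb and trithorax genes, 3 rose and 5 fell in WT and 4 rose and 8 fell in KO, or 53.3% and 80% of the list against the same 56.7% and 64.4% of all genes. Suz12, a core subunit of Polycomb repressive complex, fell by 1.58 ± 0.18 in WT and 1.62 ± 0.15 in KO.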

How the data were processed

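Of 120 samples in the series, 28 are RNA libraries, and the rest are not analysed here. Embryo tissue was lysed in guanidinium thiocyanate and its libraries made with Nextera XT, and cells were extracted with Trizol, per the labels' protocols. BWA, TopHat2 2.0.9, CASAVA 1.8 and the build mm10 are named in the submitters' processing notes, without roles. No source used here names the counter, the annotation or the strand setting. The authors deposited whole-number read counts per gene, 1 table for embryos and 1 for cells, and tests stayed within a table. The embryo table held 6 columns that match no sample and were not used, and 27 gene names in the cell table had been turned into dates.

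The quasi-likelihood test of edgeR 4.0.16 (limma 3.58.1, R 4.3.3) was fitted over all groups of a table after filterByExpr (minimum count 10, total 15), with TMM scaling, no block and Benjamini-Hochberg adjustment over all genes tested. There were 10 contrasts in embryos and 5 in cells. DESeq2 1.42.0 and the settings under the closing section were alternatives. Values named are those of called members (at most 8 per contrast with the smallest p), of the 2 nearest members that missed, and of at most 4 called genes per list. Hoxb3 in KO cells and Cyp26a1, and members given by level alone, are named beyond that rule, after their values were seen. The lists were TALE cofactors, upstream signals and factors, Polycomb and trithorax genes, noncoding and neighbouring genes, ParaHox genes and cell type markers. Members and lists were chosen with earlier results of these data known, and the Hox and Pbx motif was added after the files were seen. Some genes are not reported here and are left out of the figures, though counts and sums include them. Intervals are exact binomial intervals at 95% and cover counting error only. Bounds against 0 use 3 counts over the group.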

Additional observations from a re-analysis of the deposited data

Results flagged for a closer look

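The KO minus WT difference of Hoxc13 changed between D0 and D8, by a test of the change itself in edgeR's fit. The change was 6.26 ± 1.48 on the log2 scale, with an adjusted p of 0.0396. Hoxc13 was 1 called member of 20 tested, a share near the 5.26% of all genes called (2.16% with a positive difference). Genotype and clone cannot be told apart. At D0 the gene was at 16.2, 8.59 and 6.84 CPM in KO and 14.2 and 9.26 CPM in WT. At D8 it was at 0.737, 0.899 and 1.2 CPM in all 3 KO libraries, and at 0 in both WT libraries, so the size of the difference is set by the prior count. Leaving out single libraries gave 5.93 to 6.73, and the call was lost without KO D0 replicate 2 or 3, KO D8 replicate 3, or any of the 4 WT libraries.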

How the results depend on the processing

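Counts of called members are given as main value, then alternative. Calls over all genes also moved with the setting, and the member counts were not tested against them. E7.5 ExE against the 3-region mean gave 7, then 4 with DESeq2, 3 with a filter of 20 counts in 2 libraries and 13 without filter. All genes called higher there numbered 1934, then 1948, 1941 and 1878. E7.5 P against A gave 0, then 1 with DESeq2, 4 without filter and 1 with the compared groups only. Over all genes 29 were called higher and 5 lower, then 196 and 37, 337 and 54, and 16 and 5. P from E7.0 to E7.5 gave 0, then 3 with DESeq2 and 4 without filter, where all genes gave 4 higher and 7 lower, then 73 and 42, and 142 and 77. The ExE from E7.0 to E7.5 gave 0, then 1 with DESeq2 and 2 without filter, where all genes gave 3 higher and 0 lower, then 106 and 75, and 177 and 142. E7.0 ExE gave 2, then 4 without filter and 1 with the compared groups only, where all genes gave 1442 higher, then 1818 and 614. E7.5 ExE against P gave 1, then 4 without filter and 3 with the compared groups only, Hoxb1 not among those 3. All genes gave 699 higher and 533 lower, then 954 and 909, and 636 and 545. The 6.5 dpc contrast gave 0, then 1 without filter and 1 with the compared groups only. All genes gave 531 higher and 755 lower, then 715 and 1024, and 1847 and 1796. E7.0 P against A gave 0, then 1, and AM against P 0, then 3, without filter. All genes went from 1 higher and 0 lower to 50 and 21 in the first. In AM against P they went from 6 and 10 to 91 and 98. D8 KO against WT gave 5, then 3 with total counts and 0 with the compared groups only, where all genes gave 1471 higher, then 1053 and 392. The causes were not tested.

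Replicate numbers are shared between groups, and libraries of the same number correlated in their deviations from the group means. The correlation was -0.0984 to 0.563 in 72 embryo pairs, 40 of them over 0.1, and -0.0417 to 0.169 in 13 cell pairs, 3 of them over 0.1. Best correlated with their own number were 18 of 18 embryo libraries and 7 of 10 cell libraries. Because not all pairs passed 0.1 and the labels state no pairing, the main fit had no block. A spread shared by replicate number in embryos thus stays in that fit. With a replicate block the counts were 1 for the E7.0 ExE, 2 for E7.5 ExE against P, 1 for E7.5 P against A, 1 for P over time and 2 for D8 KO against WT. The call in E7.5 P against A and in P over time was Hoxb1 (edgeR adjusted p 0.0359 and 0.0472 with the block). With the block all genes gave 70 higher and 8 lower in the first and 15 and 16 in the second.

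Leaving out single libraries gave 0 to 7 for D8 KO against WT, 0 to 2 for the difference between days, 0 to 3 for the E7.0 ExE, 2 to 8 for the E7.5 ExE, 0 to 1 for E7.5 ExE against P and for the ExE over time, 10 to 13 for KO D8 against D0 and 6 to 8 for WT. Signs turned in the E7.0 ExE contrast without ExE replicate 1 for Hoxb4 (-1.61 to 5.72 over single omissions) and Hoxb7 (-2.25 to 4.69), and without ExE replicate 2 for Hoxd1 (-0.0292 to 4.13). The fitted value became 0 without E7.0 P replicate 2 for Hoxa2 in P against A (0 to 6.13) and without E7.5 A replicate 2 for Hoxd8 in AM against A (-5.02 to 0). Among 399 values of named genes under settings other than leaving out a library, 356 kept their direction and side of the threshold.

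Scaling by total counts moved the median log2 difference over all genes by up to 0.451 (E7.5 P against A, from 0.0247 to -0.426) and changed the share of calls that were higher: from 62.9% to 44.5% in E7.5 ExE, 41.3% to 63.1% at 6.5 dpc, 55.2% to 69.6% in E7.0 ExE, 85.3% to 50% in E7.5 P against A, 37.5% to 90.9% in AM against P, 51.9% to 62.4% in WT D8 against D0, 49% to 37.8% in D8 KO against WT and 41% to 27.1% for the difference between days. Depth limits low levels, since 3 counts equal up to 0.54 CPM in embryo libraries and 0.456 CPM in cell libraries.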

Other observations

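Of 30 listed noncoding and flanking genes of the clusters, 19 were in the tables and 11 were tested in each. Skap2 and Skap1, protein-coding genes next to clusters A and B, were higher in the ExE. Of the 11 tested, 9.09% were called at 6.5 dpc, 27.3% at E7.0 and 18.2% at E7.5 against the embryonic regions. Over all genes the shares were 8.93%, 18.1% and 21.3%. At E7.0 1 of the called genes, Cbx5, was lower in the ExE. Skap2 was higher at 6.5 dpc, E7.0 and E7.5, by 1.37 ± 0.41, 1.78 ± 0.33 and 1.14 ± 0.31 on the log2 scale (edgeR adjusted p 0.0448, 0.00181 and 0.0139). Skap1 was higher at E7.5 by 3.50 ± 0.65 (adjusted p 0.00142). At D8 Skap2 was higher in KO than in WT by 1.13 ± 0.19 (edgeR adjusted p 0.00373), where 20.5% of all genes were called.

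Of the 11 tested noncoding and flanking genes, 7 (63.6%) were called in WT from D0 to D8, near the 56.7% of all genes. Cbx5 and Lnp were higher at D8 and 5 were lower. Among those 5, Calcoco2 and Ttll6, listed as cluster B neighbours, also fell in KO, where 64.4% of all genes were called. Calcoco2 went from 2657 counts to 4 in WT and from 6950 to 13 in KO (edgeR adjusted p 9.61e-08 and 1.42e-08). Ttll6 went from 229 counts to 0 in WT, at least 77.1-fold lower for 3 counts over the group, and from 837 to 11 in KO (adjusted p 4.02e-06 and 4.86e-07).

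Of 4 tested ParaHox genes, 3 were called in WT from D0 to D8, where 56.7% of all genes were called, 2 higher and Cdx1 lower. The 2 that rose, Gsx1 and Gsx2, which act in the forebrain, also rose in KO, where 64.4% of all genes were called. Gsx1 had 1 count at WT D0 and 91 at WT D8, and 4 and 92 in KO (edgeR adjusted p 0.00071 and 0.000647). Gsx2 rose by 3.29 ± 0.87 in WT and 2.37 ± 0.81 in KO on the log2 scale (adjusted p 0.00716 and 0.0233).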
